A study of Rattus norvegicus with 2 samples.

Results

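The cells described here were 710 rat cortical neural stem cells that carried the most transcript of a set of G2 and mitotic genes, out of 4691 cell barcodes in 2 single-cell RNA sequencing libraries. They were chosen by a rule on their own counts. A cell was eligible with at least 5000 unique molecular identifiers (UMIs, which count each captured RNA molecule once) and at most 10% of them from mitochondrially encoded genes, and 3548 barcodes met this. The M share of a cell was the summed UMIs of Plk1, Aurka, Cdc20, Ccnb1, Ccnb2, Cenpf, Tpx2 and Ube2c over all UMIs of the cell, and the top 20% of eligible cells by M share, with both libraries pooled, were taken. Of these 8 rule genes 7 were matched in the gene table of the counts, and Ccnb2 did not enter the sum. The vehicle library gave 157 of the cells and the ZD7288 library 553. The remaining 2838 eligible cells, 553 with vehicle and 2285 with ZD7288, are called the other cells.

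Both cultures were of a purchased line of neural stem cells from Sprague-Dawley embryonic rat cortex (E14.5), kept with the growth factor FGF2, and no genetic change is named in the labels. The treated culture received 30 µM ZD7288, which blocks hyperpolarisation-activated cyclic nucleotide-gated channels, in 0.2% DMSO. The vehicle culture received the same 0.2% DMSO alone. Exposure lasted 48 h in both, with renewal at 24 h, and the label of the treated sample spells the compound ZD2788. There was 1 library for each treatment, so culture, library and treatment cannot be told apart, no test was possible and no p-value is given. All intervals are 95% intervals that cover counting error only.

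In dividing cells, the kinase CDK1 with B-type cyclins drives entry into mitosis, and the Aurora and Polo-like kinases build the spindle. CDC20 activates the anaphase-promoting complex (APC/C), a ubiquitin ligase whose partner UBE2C helps it to mark cyclins and securin for destruction at the end of mitosis. Transcripts of these genes build up through G2 and fall as cells return to G1. In the embryonic cortex, neural stem cells divide at the ventricular surface, and genes of the spindle and centrosome are among those whose loss gives a small brain.

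Described first are the 10 genes outside the rule with the highest level over the other cells in both libraries. They were picked by that level, so they are no check that these are G2 and mitotic cells. Psrc1, a spindle microtubule protein, stood at 41.4 counts per 1000000 UMIs (CPM, from UMIs summed over cells) in the vehicle cells with high M share and at 8.23 CPM in the other vehicle cells. With ZD7288 it stood at 37.1 and 5.74 CPM. Hmmr, which binds hyaluronan and spindle microtubules, stood at 27.1 against 6.55 CPM with vehicle and at 34.5 against 6.44 CPM with ZD7288. The other leading genes were Plpp7, Depdc1b, Reep4, Arhgef39, the cyclin Ccnf, the spindle protein Fam83d, Trim59 and the abscission protein Cep55, each at least 3.61-fold higher in these cells than in the other cells of the same library, in both libraries. Outside the rule, 130 of 4435 genes (2.93%) were at least 1.5-fold higher in both libraries. These genes are a description of cells sorted by correlated transcripts, with no test.

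Of 95 measured members of 6 lists of mitotic genes (entry, condensin and cohesin, kinetochore, checkpoint and APC/C, chromosomal passenger and cytokinesis, spindle motors and microtubule-associated proteins), 65 were among those at least 1.5-fold higher in both libraries. All 13 passenger and cytokinesis genes and 22 of 25 spindle genes were, with medians of 2.64-fold and 2.91-fold with vehicle and of 3.38-fold and 3.55-fold with ZD7288. So were 13 of 19 kinetochore genes and 7 of 13 condensin and cohesin genes. Only 5 of 11 entry genes and 5 of 14 checkpoint and APC/C genes were, and 1 entry gene was at least 1.5-fold lower in both libraries. Of 27 measured S phase genes, 15 were at least 1.5-fold lower in both libraries and 0 higher, where 33 of all 4435 genes outside the rule (0.744%) were that much lower. Of the cells themselves, 2 of 157 with vehicle and 2 of 553 with ZD7288 also lay in the top 20% by S phase share. Most of these markers thus went with the label of G2 and mitotic cells, which here are a range of transcript levels and not a separate type. The lowest M share taken was 16.378 UMIs per 10000 and the highest left out was 16.365, and 38 members lay within 5% of the cut-off.

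These cells held more RNA than the others in both libraries. The median was 20453 UMIs per cell against 16673 in the other cells with vehicle, and 30971 against 23001 with ZD7288. The median number of genes detected was 3817 with vehicle and 4614 with ZD7288. The median mitochondrial share was 5.25% with vehicle and 4.53% with ZD7288. Summed over cells, the depth was 3647268 UMIs with vehicle and 17140081 with ZD7288, so a count of 0 allowed up to 0.823 and 0.175 CPM (3 counts). A doublet score marked 1 of the vehicle and 17 of the ZD7288 members, which stayed in. Across all barcodes, 3 barcode sequences occurred in both libraries, and 0 of the members carried them.

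G2 and mitotic cells made up 22.1% of the eligible vehicle cells (157 of 710, exact binomial interval 19.1% to 25.3%) and 19.5% of the eligible ZD7288 cells (553 of 2838, 18.0% to 21.0%). The difference was -2.63 percentage points (interval -6.17 to 0.73), so the shares were not separated beyond counting error. With the top 10% in place of the top 20%, the difference was 1.77 points, with ZD7288 the higher. Within the members the ZD7288 cells lay further up the scale: the median M share was 22.5 UMIs per 10000 with vehicle and 25.2 with ZD7288. When the 710 cells were cut into 3 bands of M share of nearly equal size, the vehicle cells fell 43.3%, 31.8% and 24.8% into the low, middle and high band, and the ZD7288 cells 30.6%, 33.6% and 35.8%. The low band held the larger share of vehicle cells (interval 35.4% to 51.4%) and of the ZD7288 cells the smaller (26.7% to 34.6%). These bands are cut on the M share that chose the cells. The vehicle members were also shallower, with a median of 18914 UMIs per cell in the low band against 26960 with ZD7288. The part of depth in this split was not tested.

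**Figure D1:**
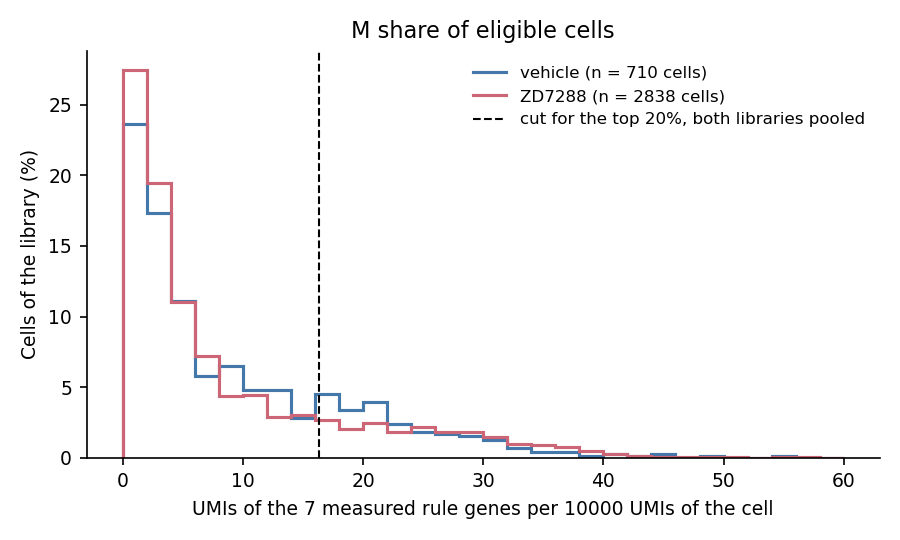
Share of eligible cells of each library (y axis, percent) by M share (x axis, UMIs of the 7 measured rule genes per 10000 UMIs of the cell, in steps of 2). Blue is vehicle (710 cells), red is ZD7288 (2838 cells), and the dashed line is the cut-off between 16.365 and 16.378. Just above the line the vehicle curve is the higher, and above about 24 the ZD7288 curve is mostly the higher.

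Promoters of 5 genes are shown because they carry letters of 3 regulatory elements that the results below come back to. The cell cycle genes homology region (CHR, searched as TTTGAA) and the CCAAT box (searched as CCAAT) are textbook elements of late cell cycle genes. The C/EBP-ATF response element (CARE, searched as TGATGNAA, where N is any base) is a textbook element of genes that the stress factor ATF4 controls. Each sequence is the 200 bases before the start of the gene in RefSeq on assembly GRCr8, 5′ to 3′ on the strand of the gene. Capitals mark each element searched, on either strand. Cdc20 lies at chr5:137255800-137255999 (minus strand), Cdk1 at chr20:19265093-19265292 (plus strand), Hmmr at chr10:25665216-25665415 (minus strand), Trib3 at chr3:161275534-161275733 (minus strand) and Chac1 at chr3:126795931-126796130 (plus strand).
Cdc20: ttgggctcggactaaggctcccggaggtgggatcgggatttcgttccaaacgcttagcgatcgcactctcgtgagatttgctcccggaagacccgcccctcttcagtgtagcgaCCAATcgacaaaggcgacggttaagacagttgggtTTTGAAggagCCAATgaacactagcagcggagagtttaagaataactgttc
Cdk1: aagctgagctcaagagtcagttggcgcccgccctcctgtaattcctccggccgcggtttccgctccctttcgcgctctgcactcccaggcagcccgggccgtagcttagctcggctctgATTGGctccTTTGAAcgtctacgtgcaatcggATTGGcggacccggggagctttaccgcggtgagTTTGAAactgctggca
Hmmr: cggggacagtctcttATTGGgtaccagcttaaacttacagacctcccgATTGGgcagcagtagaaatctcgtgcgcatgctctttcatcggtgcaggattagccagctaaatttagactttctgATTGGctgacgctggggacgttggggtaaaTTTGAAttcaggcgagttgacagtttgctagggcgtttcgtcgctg
Trib3: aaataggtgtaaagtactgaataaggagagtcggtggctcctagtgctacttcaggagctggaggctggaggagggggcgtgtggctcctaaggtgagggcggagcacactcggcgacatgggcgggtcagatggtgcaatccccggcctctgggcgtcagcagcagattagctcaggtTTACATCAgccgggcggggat
Chac1: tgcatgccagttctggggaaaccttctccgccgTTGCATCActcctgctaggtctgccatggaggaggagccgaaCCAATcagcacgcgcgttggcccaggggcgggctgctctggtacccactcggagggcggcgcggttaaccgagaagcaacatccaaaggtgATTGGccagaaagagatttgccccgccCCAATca

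In Cdc20 the CHR began 51 bases before the start and lay between CCAAT boxes that began at 86 and 41 bases. In Cdk1, CHR letters began at 72 and 16 bases before the start, and in Hmmr at 46 bases. Trib3 and Chac1 held CARE letters on the opposite strand, which began at 21 and 167 bases before the start, and Chac1 also held CCAAT letters at 125, 34 and 7 bases. Of the 130 genes outside the rule that were at least 1.5-fold higher in G2 and mitotic cells of both libraries, 107 had an entry in the RefSeq promoter table. Over the full window of 300 bases, 61 of these 107 (57.0%) held CHR letters, 73 (68.2%) held CCAAT and 43 (40.2%) held both. Among 3907 promoters of all genes measured in these cells the shares were 11.7%, 40.7% and 5.45%, and among all 33469 promoters 18.3%, 37.5% and 7.41%. CARE letters lay in 5 of 24 promoters of the ATF4 list (20.8%), in 1.74% of those of all measured genes and in 3.98% of all promoters. In the 5 sequences shown no marked element overlaps another. A match is a description of the letters, not of a bound factor.

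Most genes of cell division stood at close levels in the G2 and mitotic cells of both libraries. Of 4927 genes measured there (at least 20 CPM in the higher library), 411 (8.34%) had a ratio of ZD7288 to vehicle of 1.5 or more. Another 251 (5.09%) were lower by that factor or more, and over all of them the log2 ratio had a median of 0.05. For list members a log2 ratio of 0.32 in either direction was used, which 1118 genes (22.7%) passed upwards and 683 (13.9%) downwards. Of 130 genes in the 6 mitotic lists 100 were measured. Of these 16 were higher and 8 lower, both below the shares over all genes, and their median was 0.10 on the log2 scale. Cells of both libraries were taken at the same M share cut-off, and 65 of 95 members of these lists stood higher above it. Their close levels can thus not be told apart from the choice of cells.

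The rule genes are described first, with nothing read from them, since their sum chose the cells. Cdc20 stood at 363 CPM with vehicle and 480 CPM with ZD7288, Plk1 at 224 and 276 CPM, and Aurka, the kinase of spindle poles, at 149 and 188 CPM. The spindle assembly factor Tpx2 stood at 248 and 290 CPM. Cyclin B1 (Ccnb1) at 195 and 207 CPM, the centromere protein Cenpf at 333 and 330 CPM and Ube2c at 865 and 853 CPM lay closer together. The ratios ran from 0.987 for Ube2c to 1.32 for Cdc20.

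Among genes of mitotic entry, 1 of 11 measured members passed the 0.32 rule, and 0 were lower. This was Cdk1, the catalytic partner of cyclin B, at 333 CPM with vehicle and 419 CPM with ZD7288 (ratio 1.26, 1.18 to 1.34). Within the low, middle and high band of M share its ratio was 1.18, 1.15 and 1.15, under the 0.32 rule in each. In the other cells Cdk1 stood at 109 and 140 CPM (1.28, 1.21 to 1.36), so its ratio was nearly the same in both ranges.

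Condensin, cohesin and chromosome surface genes gave 0 higher and 4 lower of 15. Mki67, which coats mitotic chromosomes, stood at 143 CPM with vehicle and 109 CPM with ZD7288 (ratio 0.766, 0.695 to 0.845). Separase (Espl1), the protease that cuts cohesin at anaphase, stood at 26.9 and 17.5 CPM (0.651, 0.517 to 0.827). The condensin II subunit Ncapg2 at 22.5 and 14.0 CPM and the cohesin regulator Pds5b at 37.8 and 27.1 CPM were the other 2. The ratio of Ncapg2 was 0.623, and 0.406 with every cell thinned to 5000 UMIs. The median of the list was -0.04 on the log2 scale.

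At the kinetochore, which ties chromosomes to the spindle, 3 of 20 genes were higher and 1 lower. Their median was 0.08 on the log2 scale. Nuf2, part of the microtubule-binding NDC80 complex, stood at 99.8 CPM with vehicle and 143 CPM with ZD7288 (ratio 1.43, 1.28 to 1.61). Mis18a, which helps to load the centromeric histone, had a ratio of 1.26. The scaffold Knl1 stood at 32.4 and 24.5 CPM (0.757, 0.616 to 0.937).

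Checkpoint and APC/C genes gave 3 higher and 1 lower of 15. The checkpoint proteins Bub3 and Bub1 stood at 248 and 112 CPM with vehicle and at 338 and 145 CPM with ZD7288, and the APC/C subunit Anapc4 had a ratio of 1.30. The APC/C subunit Anapc1 stood at 26.0 and 15.4 CPM (ratio 0.591, 0.466 to 0.756). Among passenger and cytokinesis genes, 2 of 14 were higher and 0 lower. These were the kinesins of the cleavage furrow and midbody, Kif20a at 95.7 and 127 CPM and Kif23 at 99.8 and 126 CPM.

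Spindle motors and microtubule-associated proteins gave 7 higher and 2 lower of 25. The median of the list was 0.17 on the log2 scale. Kif18a, the kinesin that dampens chromosome oscillations, stood at 43.0 CPM with vehicle and 61.8 CPM with ZD7288 (ratio 1.44, 1.21 to 1.71). The augmin subunit Haus8 stood at 23.3 and 37.4 CPM (1.6, 1.28 to 2.04) and the kinase Pbk at 60.0 and 83.9 CPM. In the high band the ratios were 1.11 for Kif18a, 1.34 for Haus8 and 1.16 for Pbk. Numa1, which anchors dynein at spindle poles and the cortex, stood at 45.5 and 32.1 CPM (0.706, 0.593 to 0.845). Its ratio was 0.575, 0.679 and 0.927 (0.638 to 1.39) in the low, middle and high band. The median of the spindle list was -0.05 with the top 10% of M share and -0.04 in the high band alone.

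None of the 8 measured genes of the centrosome and microcephaly list passed the rule in these cells. Its 2 members with the most counts were Pafah1b1 (LIS1), a dynein regulator, at 129 and 155 CPM, and the centriole appendage protein Odf2 at 117 and 136 CPM. Of 5 genes of spindle orientation and fate, 1 was higher, the polarity kinase Prkci at 17.8 and 24.4 CPM. Nuclear envelope genes gave 2 higher and 1 lower of 12: lamin A (Lmna) at 15.9 and 32.4 CPM (ratio 2.04, 1.55 to 2.72), Nup107 at 18.4 and 27.9 CPM and emerin (Emd) at 54.8 and 40.1 CPM. With every cell thinned to 5000 UMIs the ratio of Lmna was 1.22, below the rule.

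Of 10 measured genes of the tubulin list 5 were higher and 0 lower. The list holds tubulins, the subunits of microtubules, and stathmins, which destabilise them. All 5 were among its 8 measured tubulins, and the 2 measured stathmins, Stmn1 and Stmn3, had log2 ratios of -0.24 and -0.16. The 10 matched tubulins summed to 14080 CPM with vehicle and 17227 CPM with ZD7288. Tuba1c stood at 35.6 and 76.0 CPM (ratio 2.13, 1.78 to 2.57), and in the other cells at 10.0 and 11.9 CPM (1.19, 0.982 to 1.46). Its ratio was 2.58, 1.61 and 1.86 in the low, middle and high band of M share. Tubb6 stood at 257 and 516 CPM (2.01, 1.88 to 2.15), and its ratio in the other cells was close, at 2.18 (2.08 to 2.28). Tubb2a and Tubb4b had ratios of 1.48 and 1.31.

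**Figure D2:**
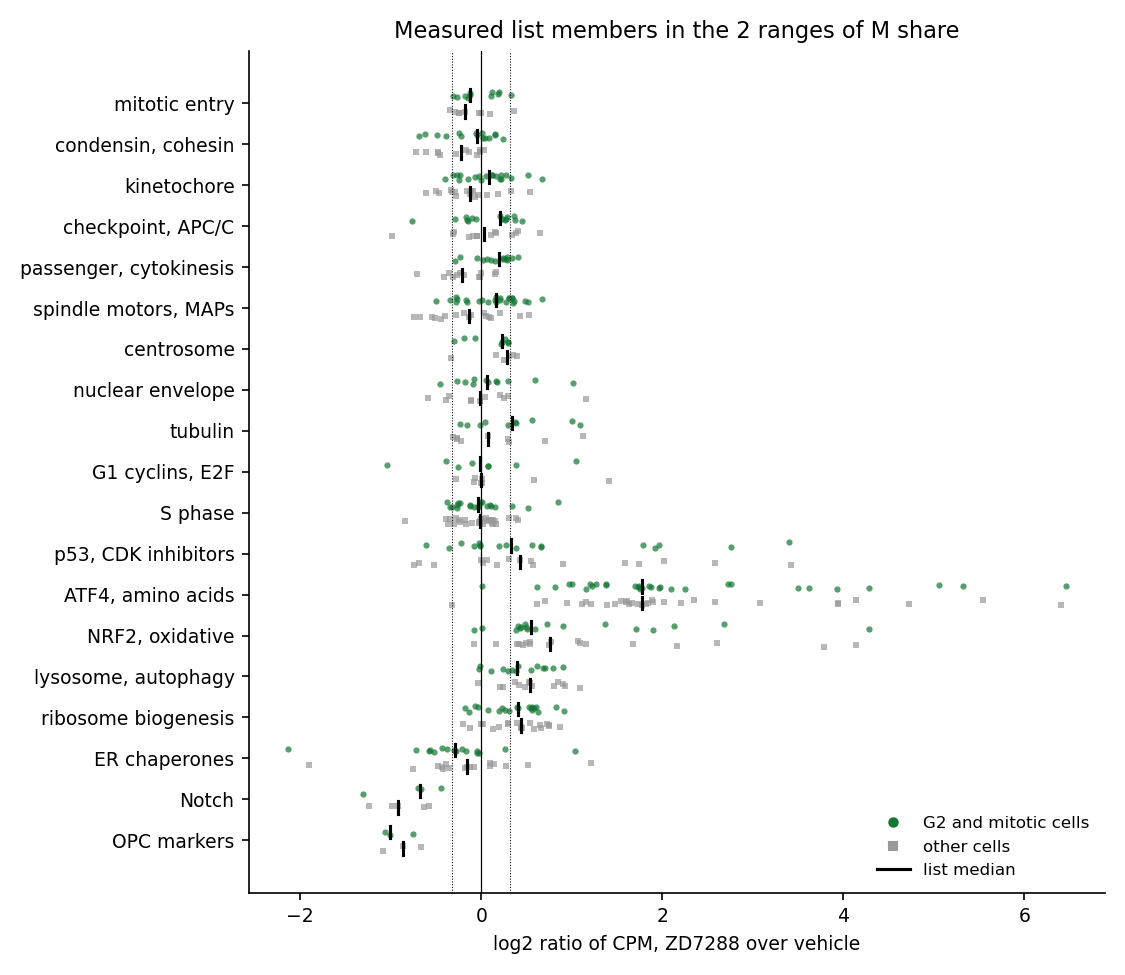
Log2 ratio of CPM, ZD7288 over vehicle (x axis), of each measured member of 19 lists (y axis), in G2 and mitotic cells (green circles) and in other cells (grey squares), with the list median as a black bar and dotted lines at 0.32 in either direction. The 6 mitotic lists at the top centre between -0.12 and 0.21 in G2 and mitotic cells, while the ATF4 list centres at 1.78 in both ranges.

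Outside the G2 and mitotic range, more genes of the mitotic lists were lower than higher with ZD7288. Of 81 members of the 6 mitotic lists measured in the other cells, 9 were higher and 20 lower and the median was -0.13 on the log2 scale, where 29.5% of all 4781 genes measured there were higher and 14.0% lower. In the checkpoint and APC/C list 4 of 14 were higher there, close to the share over all genes, and 1 was lower. Of the 81 members measured in both ranges, 69 (85.2%) had the larger ratio in the G2 and mitotic cells. Over all 4674 genes measured in both, 39.8% did. All 17 spindle genes and all 12 passenger and cytokinesis genes lay on that side, and 6 of 14 checkpoint and APC/C genes did. The 7 rule genes, whose sum split the ranges, all lay there too, with summed ratios of 1.10 and 0.860. Genes that vary with the rule share in this split, so these counts are a description of the sorted cells.

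Cenpa, the centromeric histone, was among the 8 genes whose ratio lay furthest above that of the other cells. It stood at 217 and 252 CPM in G2 and mitotic cells (ratio 1.16, 1.08 to 1.26) and at 87.5 and 63.6 CPM in the other cells (0.727, 0.678 to 0.779). Aspm, a spindle pole protein tied to microcephaly and picked after its values were seen, had ratios of 0.812 (0.689 to 0.960) and 0.486 (0.414 to 0.571). The M share moved with this split: it was higher with ZD7288 among the members and lower among the other cells, with medians of 3.77 and 3.17 UMIs per 10000 in the latter. Its part in the gap between the ranges was not tested.

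Bands of M share are bands of the summed rule genes, so the level of those genes in each band is set by construction and is drawn only for reference. Spindle genes summed to 2054 CPM with vehicle and 2231 CPM with ZD7288 in the low band, and to 3488 and 3458 CPM in the high band. Kinetochore genes summed to 1817 and 1920 CPM in the low band, and to 2438 and 2317 CPM in the high band. Both lists stood higher in the high than in the low band in both libraries. They share no gene with the rule but vary with it, so this rise is a description of the sorting. Mki67 had ratios of 0.677 (0.575 to 0.80) and 0.623 (0.528 to 0.739) in the low and middle band and of 0.967 (0.794 to 1.19) in the high band.

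**Figure D3:**
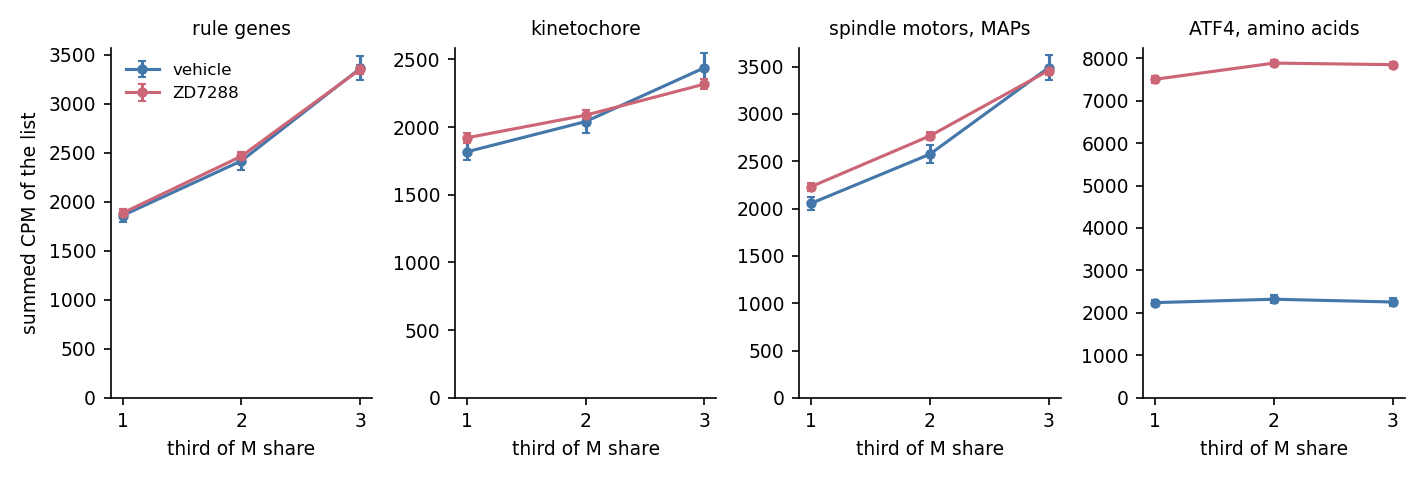
Summed CPM of 4 lists (y axis, from 0) in the low (1), middle (2) and high (3) band of M share, for vehicle (blue) and ZD7288 (red), with exact Poisson intervals as bars. The rule genes define the bands and are drawn for reference only. Kinetochore and spindle genes stand higher in the high band than in the low band in both libraries, and the ATF4 list lies between 2243 and 2322 CPM with vehicle and between 7502 and 7883 CPM with ZD7288 in every band.

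Of all lists, the highest median ratio in G2 and mitotic cells was that of the ATF4 response, which is switched on when amino acids run short or translation is held back, and which raises amino acid import and synthesis. Of 31 measured genes 30 were higher with ZD7288 and 0 lower, and the median was 1.78 on the log2 scale. In the other cells 30 were higher and 1 lower of 31, also with a median of 1.78. The summed level was 2270 CPM with vehicle and 7761 CPM with ZD7288 (ratio 3.42, 3.34 to 3.50), against a ratio of 3.40 in the other cells.

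Trib3, a pseudokinase that ATF4 induces and whose promoter is shown above, had 2 UMIs in all 157 vehicle cells, or 0.548 CPM, and 60.3 CPM with ZD7288 (ratio 110, 30.4 to 910). The cationic amino acid carrier Slc7a3 stood at 4.66 and 192 CPM (41.2, 25.7 to 70.8). Cth, which makes cysteine, stood at 2.47 and 87.1 CPM, and the cystine carrier Slc7a11 at 3.56 and 72.2 CPM. Asparagine synthetase (Asns) stood at 29.6 and 338 CPM (11.4, 9.43 to 13.9), and in the high band of M share at 19.1 and 357 CPM (18.7, 11.5 to 32.8). Pck2, the mitochondrial form of PEPCK, stood at 4.66 and 73.0 CPM (15.7, 9.75 to 27.0). Chac1, which breaks down glutathione, stood at 4.11 and 52.2 CPM (12.7, 7.66 to 22.8). Atf4 itself stood at 151 and 348 CPM (2.31, 2.11 to 2.52). In the other cells the ratios were 89.3 for Trib3, 47.3 for Slc7a3, 26.9 for Cth, 17.9 for Slc7a11, 8.47 for Asns, 15.5 for Pck2 and 15.6 for Chac1. Few vehicle counts stand behind these ratios, and over other settings that sum UMIs they ran from 26.4 to 69.7 for Slc7a3, 19.2 to 38.6 for Cth, 10.4 to 51.1 for Slc7a11, 10.4 to 32.9 for Pck2 and 9.94 to 72.4 for Chac1. For Trib3, with 0.5 UMIs added since vehicle was at 0 in some of them, they ran from 43.4 to 246.

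The difference was spread over the cells. With every cell thinned to 5000 UMIs, which left out none of the eligible cells, a vehicle G2 and mitotic cell held a median of 10 UMIs of the list (range 4 to 26) and a ZD7288 cell 38 (range 9 to 78). The other cells had the same medians of 10 and 38. Of 553 treated members, 537 (97.1%) lay above the upper quartile of the vehicle members, and 437 (79.0%) above the highest vehicle member. At this depth Asns was seen in 10.8% of vehicle members and 78.7% of ZD7288 members (40.1% and 98.2% unthinned), and in 17.5% and 75.4% of the other cells. Trib3 was seen in 0 of 157 vehicle members, where a count of 0 allows up to 1.91% of cells with a UMI at this depth (3 counts), and in 19.7% of ZD7288 members (1.27% and 58.4% unthinned). The data held no identified cells without these genes, so the share that free RNA could give was not measured.

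**Figure D4:**
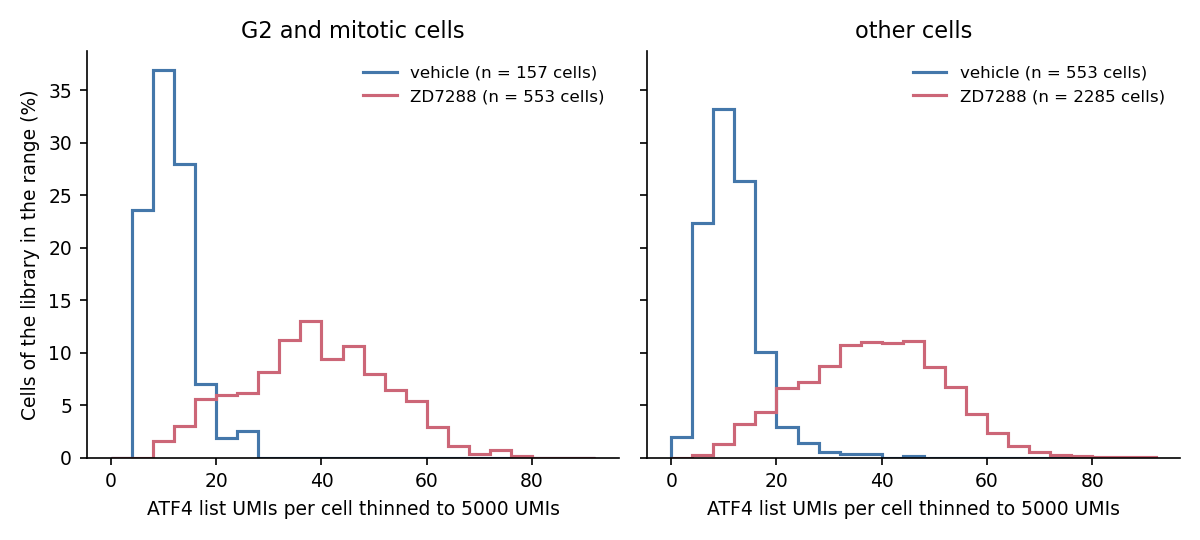
Share of cells of a library (y axis, percent) by UMIs of the ATF4 list in each cell thinned to 5000 UMIs (x axis, in steps of 4), for G2 and mitotic cells (left) and other cells (right), vehicle in blue and ZD7288 in red. The treated cells form a single broad hump around the median of 38 in both panels, and vehicle cells lie around 10.

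Of 6 measured Cdkn genes, most of which encode inhibitors of cyclin-dependent kinases (CDKs), 3 were higher with ZD7288 and 0 lower in the G2 and mitotic cells. Cdkn1a (p21), which binds and blocks cyclin-CDK complexes, stood at 43.6 CPM with vehicle and 171 CPM with ZD7288 in G2 and mitotic cells (ratio 3.92, 3.34 to 4.63), and at 60.5 and 203 CPM in the other cells (3.36, 3.12 to 3.63). Cdkn2b (p15), which blocks CDK4 and CDK6, stood at 7.13 and 77.0 CPM (10.8, 7.33 to 16.6), with the same ratio of 10.8 in the other cells. The ratio of Cdkn2b was 5.84 in cells of 10000 to 30000 UMIs and 32.5 in the high band of M share, where vehicle had 2 UMIs. Cdkn2a was the other one, at 13.4 and 20.1 CPM (1.49, 1.11 to 2.06). Cdkn1b (p27), Cdkn2c and Cdkn3 had ratios of 0.995, 0.949 and 0.857, and Cdkn1c, at 13.2 and 3.09 CPM, was under the floor of 20 CPM. These 5 genes beside Cdkn1a and Cdkn2b were picked after their values were seen. At 5000 UMIs, Cdkn1a was seen in 14.0% of vehicle members and 49.9% of ZD7288 members (34.4% and 91.1% unthinned), and in 18.3% and 52.9% of the other cells. Of the members, 4.46% with vehicle and 20.6% with ZD7288 lay in the top 20% of all eligible cells by Cdkn1a share. Cells of high Cdkn1a share were thus present in the G2 and mitotic range, at 20.6% there (17.3% to 24.2%) and 24.6% in the other treated cells (22.8% to 26.4%).

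Of the 18 measured p53 targets and CDK inhibitors 9 were higher and 2 lower. On the log2 scale their median was 0.33, against 0.43 in the other cells. Sesn2, a stress-induced inhibitor of mTORC1 and also a known ATF4 target, stood at 18.9 and 129 CPM (ratio 6.80, 5.35 to 8.78). Gadd45a, which can inhibit CDK1, stood at 76.8 and 292 CPM (3.80, 3.37 to 4.30). Of 5 genes of the G2 damage checkpoint, 2 were higher and 0 lower. The stress-responsive kinase Plk3 stood at 8.77 and 21.1 CPM. In the high band the ratio of Plk3 was 4.61, against 2.41 in all bands.

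Genes of the NRF2 response to oxidants were higher in 16 of 18 and lower in 0. Their log2 median was 0.55, against 0.76 in the other cells. Of the 18, 3 had the larger ratio in the G2 and mitotic cells, where 39.8% of all 4674 genes measured in both ranges did. Nqo1, a quinone reductase, stood at 5.48 and 35.9 CPM (ratio 6.55, 4.21 to 10.8) and at 2.86 and 40.0 CPM in the other cells (14.0, 9.98 to 20.3). Haem oxygenase 1 (Hmox1) had ratios of 4.40 (3.44 to 5.72) and 6.09 (5.29 to 7.03). Glutathione transferase Gstp1 stood at 336 and 1253 CPM (3.73, 3.52 to 3.95), with a ratio of 4.48 (4.34 to 4.63) in the other cells. In the high band of M share the ratio of Nqo1 was 3.09 (1.60 to 6.85), and in cells of 10000 to 30000 UMIs that of Hmox1 was 2.84.

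Lysosome and autophagy genes gave 9 higher and 0 lower of 14. Of the 14, 2 had the larger ratio in G2 and mitotic cells, where 39.8% of all genes did. The autophagy receptor Sqstm1 stood at 45.8 and 85.8 CPM (ratio 1.87) and the lysosomal saposin precursor Psap at 149 and 243 CPM (1.63), against 2.13 and 1.90 in the other cells. Ribosome biogenesis genes gave 11 higher and 0 lower of 20, with the nucleolar protein Nop56 at 120 and 226 CPM. ER chaperones gave 1 higher and 7 lower of 17, with Sdf2l1 at 27.1 and 6.18 CPM, 4.39-fold lower, and Herpud1, a degradation factor of the ER, at 40.3 and 82.6 CPM. Heat shock genes gave 2 higher and 2 lower of 11, such as the mitochondrial chaperonin Hspd1 at 544 and 767 CPM and Hspa8 at 1663 and 1248 CPM.

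Stem cell signalling and lineage genes differed in these cells much as in the other cells. All 4 measured Notch pathway genes were lower. The receptor Notch1, which keeps cortical progenitors undifferentiated, stood at 56.5 and 22.9 CPM (ratio 0.405, 0.341 to 0.482), with 0.425 in the other cells, and Notch2, Hes6 and the feedback inhibitor Nrarp had ratios of 0.633, 0.616 and 0.737. All 3 measured markers of oligodendrocyte precursors were lower as well. The rest of the 8 matched markers were under the floor of 20 CPM in both libraries. The lineage factors Olig1 and Olig2 stood at 1764 and 457 CPM with vehicle and at 842 and 271 CPM with ZD7288, and Cnp at 131 and 64.8 CPM. Their ratios of 0.477, 0.593 and 0.497 lay near those in the other cells, which were 0.549, 0.630 and 0.470.

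Neural stem markers gave 3 higher and 3 lower of 10. The radial glia genes Fabp7 (3065 and 2082 CPM) and Sox9 (146 and 86.6 CPM) were lower, and the glutamate carrier Slc1a3 (193 and 316 CPM) and the RNA-binding protein Msi1 (16.5 and 34.4 CPM) higher. The ratio of Msi1 was 2.09, and 3.89 with every cell thinned to 5000 UMIs. Sox2, picked after its values were seen, stood at 261 and 265 CPM. The gap junction protein Gja1, an astrocyte and radial glia gene, stood at 28.5 and 54.1 CPM (ratio 1.90, 1.55 to 2.35), with 1.23 (1.09 to 1.39) in the other cells and 3.07 (1.90 to 5.33) in the high band of M share. The other measured astrocyte marker, Aldoc, stood at 41.7 and 30.3 CPM. Of the other 2 lineages with measured genes, neurons gave Gap43 at 66.1 and 97.7 CPM and Map2 at 95.1 and 70.7 CPM, and intermediate progenitors Btg2 at 169 and 166 CPM. Btg2 was 1 of 4 matched intermediate progenitor markers, and the other 3 were at 0 in the members of both libraries. In the low, middle and high band the ratio of Gap43 was 2.14, 1.27 and 1.07 (0.836 to 1.38). That of Map2 was 0.685, 0.903 and 0.668. All 7 microglial markers were at 0 in the members of both libraries. Endothelial markers summed to 0 and 0.350 CPM and mesenchymal markers to 0.548 and 8.34 CPM.

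Of 8 measured G1 cyclin and E2F genes, 2 were higher and 2 lower. Cyclin D2 (Ccnd2) stood at 46.9 and 97.0 CPM and Myc at 108 and 141 CPM. Cyclin D1 (Ccnd1) stood at 903 and 691 CPM (ratio 0.765, 0.736 to 0.795), with 0.945 (0.925 to 0.966) in the other cells. Cyclin E2 (Ccne2), which drives entry into S phase, stood at 23.3 and 11.4 CPM (0.488, 0.377 to 0.637), with 0.824 (0.761 to 0.894) in the other cells. With at most 5% mitochondrial UMIs its ratio was 0.326. S phase genes gave 3 higher and 3 lower of 21 measured. The methylation reader Uhrf1 had ratios of 1.44 (1.2 to 1.74) here and 0.887 (0.819 to 0.962) in the other cells, and Ubr7 1.81 (1.44 to 2.31) and 1.11 (1.02 to 1.23).

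The genes furthest down in G2 and mitotic cells with ZD7288 were outside the lists, apart from Sdf2l1. Cfap52, a protein of motile cilia, stood at 31.3 CPM with vehicle and 3.85 CPM with ZD7288, 8.12-fold lower. Gal3st1, which makes sulfatide, was 5.59-fold lower, and Rnf144a, Rap1gap and Mmd2 were 4.53-fold, 4.33-fold and 4.05-fold lower. Aif1l, Psd, the liver-type phosphofructokinase Pfkl and Plppr3 were between 3.59-fold and 3.72-fold lower. Pfkl was 3.61-fold lower here, at 42.5 and 11.8 CPM, and its ratio in the other cells was 0.514 (0.456 to 0.579) against 0.277 (0.224 to 0.344). In the high band its ratio was 0.120. Other settings that sum UMIs gave ratios of 0.183 to 0.345 for Rnf144a, 0.136 to 0.350 for Rap1gap, 0.205 to 0.436 for Mmd2, 0.264 to 0.463 for Psd and 0.169 to 0.334 for Plppr3, all still lower with ZD7288.

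Across genes, the treatment ratios in the G2 and mitotic range lay along those in the other cells of the same libraries. Of 4674 genes measured in both ranges, 306 were higher by 1.5-fold or more in both, 163 lower by 1.5-fold or more in both, and 0 were called in opposite directions. Ifi27l2b, of an interferon-inducible family, lay furthest from the diagonal among genes of large ratio. It stood at 1.10 and 41.6 CPM in G2 and mitotic cells (ratio 37.9, 14.7 to 140) and at 0.588 and 84.5 CPM in the other cells (144, 69.7 to 358), so that in treated cells its level was 0.492 times that of the other cells. Hspa4l, with ratios of 2.63 and 5.0, Arfgap1, Exoc3 and Lrrn1 also lay below, and Hectd2, with 2.42 and 1.47, Rbpms2, Fam111a and the metallothionein Mt1 above. Other settings that sum UMIs gave 16.0 to 53 for Ifi27l2b, 1.75 to 3.10 for Hspa4l and 1.40 to 3.03 for Hectd2 in the G2 and mitotic cells.

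**Figure D5:**
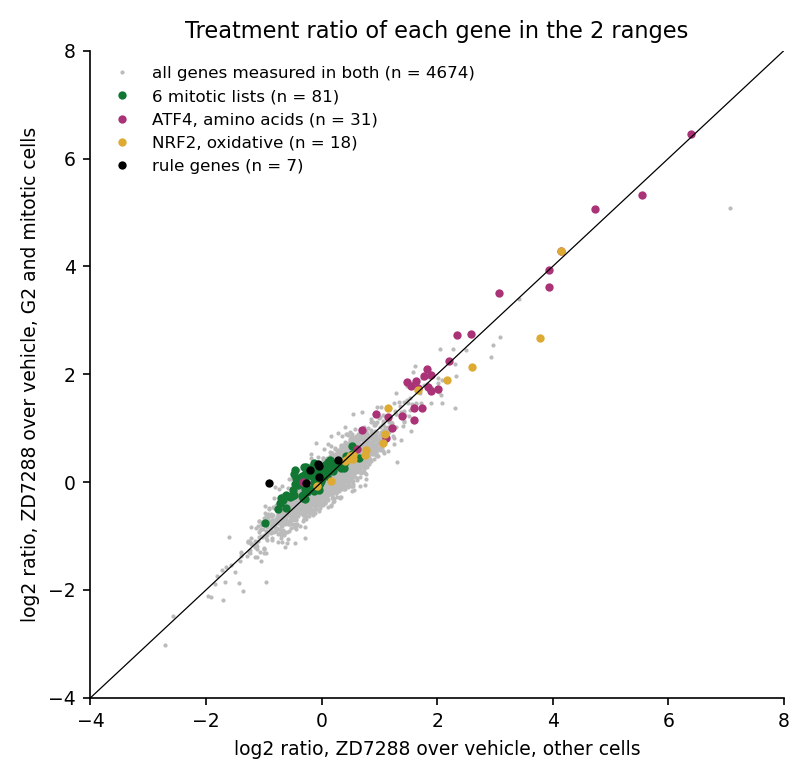
Log2 ratio, ZD7288 over vehicle, of 4674 genes in the other cells (x axis) and in G2 and mitotic cells (y axis), with the line of equal ratios. Genes of the 6 mitotic lists (green, 81) lie mostly above the line near 0, ATF4 genes (purple, 31) lie along it up to 6.46, and NRF2 genes (yellow, 18) lie mostly below it.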

How the data were processed

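The deposited table held raw UMI counts per gene and cell of both libraries, which the authors made with Cell Ranger, per the submitters' processing notes, and the matrix header gives version 3.0.2. Cells were captured with the 10x 3′ kit, version 2, per the labels' protocols. What genome build, annotation and barcode filter were used is not given in the sources used here. Barcodes end in a number, which was taken as the number that opens each sample title, and every direction rests on this match.

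UMIs were summed over the cells of a library and range and scaled to CPM. Genes of 20 CPM or more in either library counted as measured, with 0.5 UMIs added for log2 ratios and where stated. Ratios have exact Clopper-Pearson intervals, CPM exact Poisson and shares exact binomial intervals, and the interval of the share difference combines both shares' intervals. With 1 library per group no test was run. The code was tested on simulated data. Thinning used a fixed seed. Doublets were scored with scanpy 1.11.5 with the highest 0.8% of a library per 1000 of its cells marked.

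Members and lists were chosen with earlier results of these data known. Of 512 list symbols 495 were matched. Named genes were the rule genes, per list at most 4 members furthest past 0.32 (or the 2 of highest CPM), the 10 largest and 10 smallest ratios, the 8 furthest above and the 8 furthest below the ratio of other cells, and the 10 with the highest level over other cells. A few genes that the rule names are not reported here. Other genes were picked after their values were seen. Other settings varied the M share, cell filters, scaling, CPM floor and weight of cells. Promoters are from RefSeq on GRCr8, matched by symbol.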

Additional observations from a re-analysis of the deposited data

Results flagged for a closer look

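Barcodes outside the comparison also carried the G2 and mitotic transcripts. Under 5000 UMIs, 11 of 28 vehicle barcodes (39.3%, exact binomial interval 21.5% to 59.4%) and 117 of 465 ZD7288 barcodes (25.2%, 21.3% to 29.4%) lay at or above the M share cut-off. Among those with over 10% mitochondrial UMIs, 21 of 104 vehicle barcodes (20.2%, 13.0% to 29.2%) and 87 of 546 ZD7288 barcodes (15.9%, 13.0% to 19.3%) did. In shallow barcodes a few UMIs set the share, and these barcodes entered no other value.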

How the results depend on the processing

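The difference in the share of G2 and mitotic cells ran from -4.96 to 1.77 percentage points over 6 settings, with the top 10% of M share (1.77) the one that turned it. The count of genes at least 1.5-fold higher (411) was 216 with a floor of 50 CPM and 624 with every cell thinned to 5000 UMIs. The count at least 1.5-fold lower (251) was 417 with at most 5% mitochondrial UMIs, 427 with a floor of 10 CPM, 85 with a floor of 50 CPM, 378 with thinned cells and 457 in the high band of M share alone. That band and the mean over bands were added after the data were seen. Fewer or more genes and cells enter by construction in these settings. Of 408 list medians recomputed under 17 settings, 402 stayed within their interval and 0 called medians changed sign. Of 2057 ratios of 121 named genes, 1809 stayed within their counting interval and 0 called ratios changed sign. The floors of 10 and 50 CPM cannot change the ratio of a gene, so ratios under them stayed by construction. Of the named genes past 1.5-fold, 25 moved by over 1.5 times in some setting and are given beside their values. The median of the ATF4 list ran from 1.64 to 1.88. Scaling by the median gene ratio or by TMM shifted all log2 ratios by no more than the 0.05 of the median gene. Depth limited the vehicle side, where 157 cells gave 3647268 UMIs.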
